A study of Mus musculus with 3 samples.

Results

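The Hippo pathway and TEAD genes examined here were 10 named mouse genes of 21851 protein-coding genes annotated: the coactivators Yap1 and Wwtr1, the transcription factors Tead1, Tead2, Tead3 and Tead4, the kinases Lats1 and Lats2, and the scaffold genes Ajuba and Amotl2. They were taken by name, and for each one the peaks of open chromatin were read from 20 kb before the gene start to the gene end. The assay was Omni-ATAC-seq, where a transposase inserts sequencing adapters wherever DNA is accessible. It was applied to hair follicle stem cells (HFSCs) of the dorsal skin of mice aged 6 months, when the follicles rested between growth phases (telogen). There were 3 libraries: 1 from wild-type C57BL/6J mice (Msx2-WT) and 2 from mice homozygous for a germline disruption of the homeobox gene Msx2, in which a neo cassette stands before exon 2 (Msx2-KO replicates 1 and 2, written KO1 and KO2 from here on). Cells of every library had been sorted as Sca-1-negative cells with high CD34 and high alpha-6 integrin. The comparison asked which open regions are gained or lost without Msx2.

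By the labels, batch follows genotype, with a batch for Msx2-WT and another for KO1 and KO2, and the effects of genotype and batch cannot be told apart. The library names of the Msx2-KO samples share a number and differ in a suffix, and nothing states that they came from separate animals, so the spread between them may be technical. Peaks of KO1 and KO2 are named cKO in their files, and the KO1 file also has a library number that is not in its label. The labels were followed. With 1 Msx2-WT library no p-value between genotypes was possible. The lists held 104386 summits in Msx2-WT, 36508 in KO1 and 83322 in KO2, and a summit was kept at a −log10 q above 2.0. The commonest background of a library, used as its depth, was 1.74, 0.476 and 0.790 tags in the same order, where a tag is a read extended to a fixed length. Promoters of HFSC markers held a peak in 7, 6 and 8 of 9 genes, those of leukocyte markers in 0 of 5 in every library, those of melanocyte markers in 3, 2 and 3 of 5, those of fibroblast markers in 2, 1 and 3 of 5, and those of endothelial markers in 0, 0 and 1 of 5. Over all protein-coding genes the shares were 47.1%, 37.9% and 53.5% in the same order. Of the HFSC markers, the promoters of Cd34 and Krt15 held a peak in Msx2-WT and KO2 alone. KO1 listed nothing at Cd34 and 5 tags under the limit at Krt15. Lgr5 and the fibroblast marker Col1a2 had a promoter peak in KO1 and KO2 but not in Msx2-WT, beside 2.29% of all genes. Msx2-WT listed 7 and 6 tags there under the limit. Of 5 differentiated epidermis markers, Krt10 and Ivl had a promoter peak in Msx2-WT alone, beside 2.15% of all protein-coding genes. That of Krt10 had 10 tags at a −log10 q of 2.23, and KO2 listed 5 tags under the limit at both genes. The part of other cell types in the results was not tested. Msx2 itself had a promoter peak of 15 tags in Msx2-WT, 9 in KO1 and 16 in KO2, which does not test the labels because the cassette lies elsewhere in the gene.

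The Hippo pathway is a kinase cascade that restrains growth. When it is active, the LATS kinases phosphorylate YAP and its relative TAZ, the product of Wwtr1, and hold them in the cytoplasm, with angiomotin family scaffolds such as AMOTL2 as further anchors and LIM proteins such as AJUBA as inhibitors of LATS. When it is inactive, YAP and TAZ enter the nucleus and bind DNA through the TEAD factors, and in skin they are known for driving proliferation of epidermal and hair follicle progenitors.

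TEAD factors are known to bind the letters GGAATG. For most of the 10 genes, a stretch with these letters at a start site is shown first, because the letters recur below. Further copies, not shown, lie in the promoter peak regions of Tead1, Tead3, Yap1, Wwtr1 and Amotl2. How often the letters stand anywhere in a peak region of the series was not counted. Each stretch is 30 bases of GRCm38, 5′ to 3′ on the strand given, with GGAATG in capitals. The first 7 lie inside an ATAC peak region of the gene named, and that of Ajuba lies before a start site where no peak was kept.
Tead4, chr6:128300454-128300483, plus strand: gcaGGAATGcacGGAATGggcgctGGAATG
Tead3, chr17:28350702-28350731, plus strand: gatggccGGAATGtacGGAATGagcccggc
Tead1, chr7:112679337-112679366, minus strand: atgtgcGGAATGaggacaGGAATGaaatga
Yap1, chr9:8004720-8004749, minus strand: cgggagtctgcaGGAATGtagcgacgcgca
Wwtr1, chr3:57576217-57576246, plus strand: cgcccagcacccGGAATGtggcacggggcg
Lats2, chr14:57746102-57746131, minus strand: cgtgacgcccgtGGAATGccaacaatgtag
Amotl2, chr9:102717727-102717756, minus strand: gctgctatgccaGGAATGtgagagtttcag
Ajuba, chr14:54577819-54577848, plus strand: tGGAATGcgcggaggggcactgtGGAATGt

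Tead4 and Tead3 both carried a direct repeat of the letters with 3 bases between the copies, and in Tead4 a further copy followed. This arrangement, GGAATGNNNGGAATG on either strand, was searched for after the sequences were seen. It occurred in 20 of the 47562 peak regions of the series, or 0.0421%, and 2 of the 20 were the promoter regions of Tead3 and Tead4. Another of them was the promoter of Ccn2, a gene long used as a readout of YAP and TEAD activity, where the repeat began at −40 bases from the gene start. Others began at −87 bases from the start of Erc2 and at −547 bases from that of Pelo. The rest reached as far as −205838 bases from the nearest gene start, that of Kirrel3. Ccn2, Erc2, Pelo and Kirrel3 were chosen after their values were seen. A match describes the letters only and does not show that a TEAD protein was bound.

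Peaks were kept in the windows of 9 of the 10 genes in each library, beside 64.3% (Msx2-WT), 52.6% (KO1) and 69% (KO2) of all protein-coding genes, and the promoter of most of them was open in Msx2-WT and Msx2-KO cells alike. A promoter peak, meaning a peak whose strongest summit lay within 1500 bases of a protein-coding start site, was present for 7 of 10 genes in Msx2-WT, beside 47.1% of all protein-coding genes. It was present for 7 in KO1, beside 37.9%, and for 8 in KO2, beside 53.5%. Yap1, Wwtr1, Tead3, Tead4, Lats2 and Amotl2 had one in all 3 libraries, a state held by 35.1% of genes. Lats1 had one in both Msx2-KO libraries and none in Msx2-WT, a state held by 2.29% of genes. Tead1 had one in Msx2-WT and KO2, a state held by 9.62%, and Tead2 and Ajuba had none anywhere, as did 43.9%. These states depended on the setting. With tags and background scaled to the shallowest library, the Msx2-WT promoter peaks of Yap1, Lats2 and Amotl2 fell under the limit. They had a −log10 q of 8.86, 6.60 and 10.1 before scaling. These 3 genes then joined Lats1 among those with a promoter peak kept in KO1 and KO2 but not in Msx2-WT. With lists of equal length, 1 of the 10 genes was in that state. The share of all protein-coding genes in that state was not taken at either setting.

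**Figure D1:**
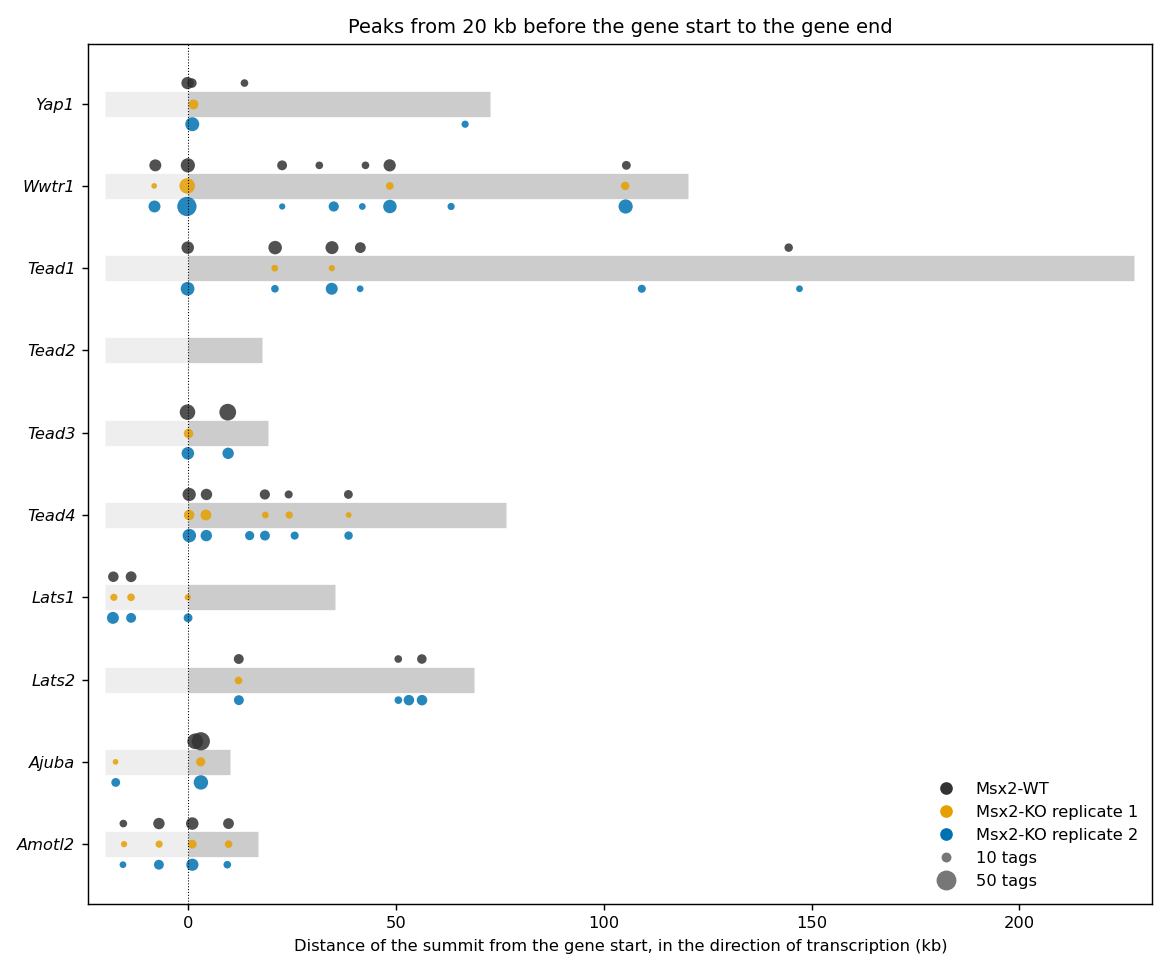
Strongest summits of kept peaks by distance from the gene start in kb, in the direction of transcription, for the 10 genes. Each gene has a row of points for Msx2-WT (black), KO1 (orange) and KO2 (blue), the point area is proportional to the tag number, and grey bars mark the gene body (dark) and the 20 kb before it (light). Wwtr1 holds 9 separate regions, Tead2 holds none, and Lats1 has a point at its start in both Msx2-KO libraries and none in Msx2-WT.

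In all, the 10 windows held 33 kept peaks in Msx2-WT, 23 in KO1 and 37 in KO2. Merged where they shared at least 1 base, these gave 40 regions, each in the window of a single gene of the 10. Of the 40, 25 were intronic, 9 lay at a start site of the gene itself, 4 lay upstream and 2 were promoters of neighbouring genes. Wwtr1 had 9 regions, Tead1 7, Tead4 6, Lats2 and Amotl2 4 each, Yap1 and Lats1 3 each, Tead3 and Ajuba 2 each, and Tead2 0. The median was 3.5 regions per window, beside 1 over all protein-coding genes, and the median window was 72.0 kb long, beside 37.4 kb. Per 100 kb of window, the median was 5.27 regions beside 2.90, with the most in Amotl2 at 10.9 and the fewest in Tead2.

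**Figure D2:**
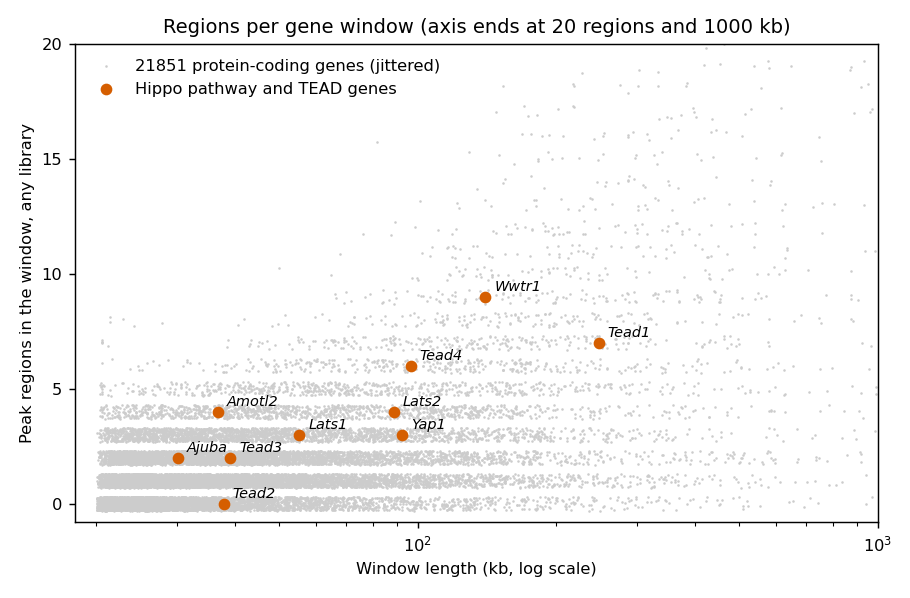
Number of peak regions in any library against window length in kb on a log scale, for 21851 protein-coding genes (grey, jittered, with an axis that ends at 20 regions) and the 10 Hippo pathway and TEAD genes (orange, named). Wwtr1 stands at 9 regions in 140.3 kb and Amotl2 at 4 in 36.7 kb, whereas Tead2 stands at 0 in 37.9 kb.

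The regions were held by all 3 libraries in 21 of 40 cases, or 52.5%, beside 32% of the 32610 regions in the windows of all protein-coding genes. Both Msx2-KO libraries and not Msx2-WT held 2, beside 6.69%: the Lats1 promoter and a region upstream of Ajuba. Msx2-WT alone held 3, beside 17.6%, and these were introns of Yap1, Wwtr1 and Tead1. Msx2-WT with KO2 held 7, beside 15.5%, and KO2 alone held 7, beside 25.3%. KO1, the shallowest library, held no region alone, beside 2.15%. At start sites of the genes themselves 7 of 9 regions were in all 3 libraries, beside 58.4% of regions at start sites. In introns 9 of 25 were, beside 17.1% of regions away from start sites, while 3 were in Msx2-WT alone, beside 24.5%, 6 in Msx2-WT and KO2, beside 14.4%, and 7 in KO2 alone, beside 32.1%. KO1 had no entry at 13 of the 25. The balance between genotypes varied with the setting. Scaled to the shallowest library, 10 regions were held by KO1 and KO2 without Msx2-WT, and 0 by Msx2-WT alone. When equally long lists were taken instead, KO1 and KO2 without Msx2-WT held 3 regions and Msx2-WT alone held 4. Each list then had 36494 summits. That was every summit of KO1 on the chromosomes used, including those under the limit of −log10 q. Scaling also carries the lower ratio of tags to background in Msx2-WT, and the part of depth alone was not tested.

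Of the coactivators, Yap1 (ENSMUSG00000053110.13, chr9:7931999-8004596, minus strand) had 3 regions and an open promoter in every library. Its promoter region, chr9:8002946-8005213, covered the first exon and the start of intron 1. The strongest summit there numbered 23 tags in Msx2-WT (14.6 to 34.5, an exact Poisson interval at 95%), 15 in KO1 (8.40 to 24.7) and 30 in KO2 (20.2 to 42.8). These intervals, like all others given, cover counting error only. To set libraries side by side, each tag number was divided by the background of its library and by the median of that density over the 13072 regions with tag numbers in all 3 libraries. This relative tag density was 1.00 at Yap1 in Msx2-WT, 1.36 in KO1 and 1.25 in KO2, ratios to Msx2-WT of 1.36 and 1.25, and the counting intervals of the 3 values overlapped.

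The place of the highest point within the Yap1 promoter differed between Msx2-WT and the Msx2-KO libraries. In Msx2-WT it stood at −115 bases from the gene start, and a second, lower peak stood at 937 bases with 14 tags. In the Msx2-KO libraries it stood at 1146 bases and 1035 bases, with further summits at −93 bases (12 tags) in KO1 and at 94 bases (26 tags) in KO2. The tag numbers along this stretch differed by less than their intervals within each Msx2-KO library. All 3 libraries had a kept summit within 500 bases of the start, but since a peak was placed by its strongest summit, a promoter limit of 500 bases left Yap1 with a promoter peak in Msx2-WT alone. The intronic regions of Yap1 were weak, with 9 tags at 13.6 kb in Msx2-WT alone and 8 tags at 66.7 kb in KO2 alone, and neither was listed in the other libraries even at the p-value of 0.01 where the lists end.

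Wwtr1, which encodes TAZ (ENSMUSG00000027803.14, chr3:57455649-57575910, minus strand), had the most regions of the 10 genes and the densest promoter in the Msx2-KO libraries. Its promoter region, chr3:57575022-57576632, had 31 tags in Msx2-WT (21.1 to 44.0), 37 in KO1 (26.1 to 51.0) and 57 in KO2 (43.2 to 73.9). Both Msx2-KO libraries were above Msx2-WT. The relative tag density was 1.35 in Msx2-WT (0.916 to 1.91), 3.36 in KO1 (2.37 to 4.64) and 2.38 in KO2 (1.80 to 3.08), which gave ratios of 2.50 and 1.76. The interval of Msx2-WT lay below that of KO1 and overlapped that of KO2. The ratio of KO2 fell short of the 2-fold limit that both had to pass for a call, so the Wwtr1 promoter was not called. The local background around it was also higher in the Msx2-KO libraries, at 2.14 times the background of the library in Msx2-WT and at 6.2 and 6.33 times in the Msx2-KO replicates, and its part in the result was not tested.

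Upstream of Wwtr1, at −8.05 kb, a region was present in all 3 libraries with 22, 5 and 22 tags in Msx2-WT, KO1 and KO2. The ratios were 0.475 and 0.958, the first of them resting on 5 tags (1.62 to 11.7), and the intervals of the relative density overlapped. Its 101 bases around the strongest summit, chr3:57583910-57584010 on the minus strand, are shown as the upstream element of this gene, with GGAATG in capitals.
Wwtr1 upstream: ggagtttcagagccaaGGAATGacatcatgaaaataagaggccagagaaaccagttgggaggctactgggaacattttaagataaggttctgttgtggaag

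The introns of Wwtr1 held 7 regions, 6 in intron 2 and 1 in intron 4. The region in intron 4, at 105 kb and chr3:57470321-57471356, had 12 tags in Msx2-WT (6.2 to 21.0), 11 in KO1 (5.49 to 19.7) and 31 in KO2 (21.1 to 44.0). Its ratios were 1.92 and 2.48, again both above 1 with one of them short of the limit. In intron 2 the region at 48.6 kb was present in all 3 libraries with 23, 9 and 28 tags, ratios of 0.818 and 1.17. The other 5 regions of intron 2, between 22.6 and 63.3 kb, were absent from KO1 and had 6 to 16 tags where kept. Msx2-WT and KO2 shared 2 of them, Msx2-WT alone held 1 and KO2 alone held 2.

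By the counts of promoter, gene body and upstream peaks in the 3 libraries, 9 numbers in all, the genes most like Wwtr1 were Ptpn13 and Runx1, each at a summed difference of 1, and Nfkb1 at 2. The windows of these genes were 193.1, 244.7 and 126.9 kb long, beside 140.3 kb for Wwtr1.

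**Figure D3:**
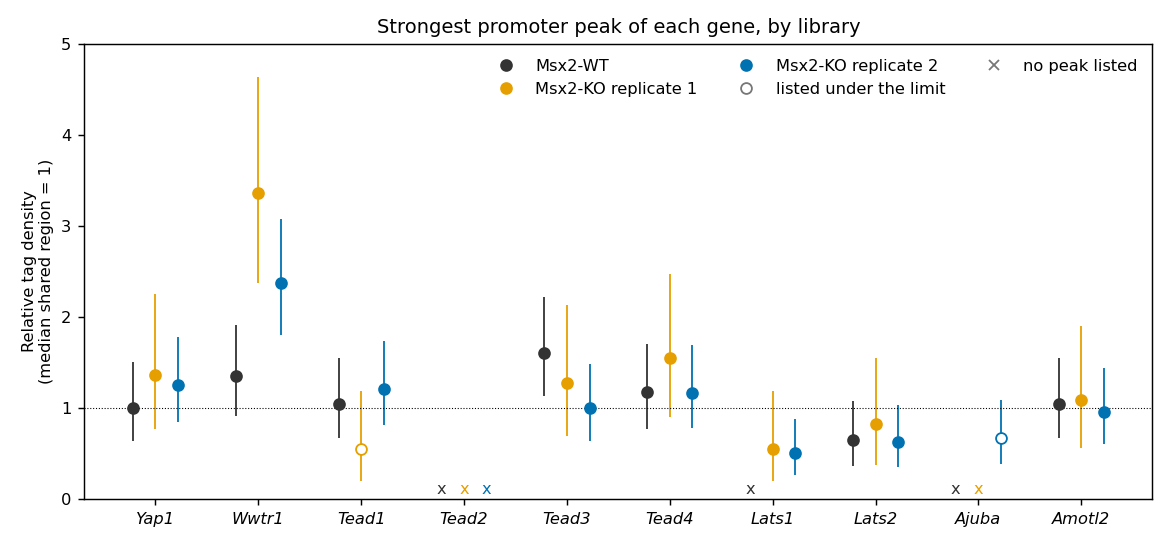
Relative tag density of the strongest promoter peak of each gene (median region present in all 3 libraries = 1) in Msx2-WT (black), KO1 (orange) and KO2 (blue), with 95% Poisson intervals of the tag number. Open circles are peaks listed under the limit of −log10 q and crosses mark libraries with no listed peak. Wwtr1 stands at 1.35 in Msx2-WT and at 3.36 and 2.38 in the Msx2-KO libraries, whereas the Lats1 promoter has no listed peak in Msx2-WT.

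Among the TEAD genes, whose products bring YAP and TAZ to DNA, Tead1, Tead3 and Tead4 had open promoters and Tead2 had no peak at all. Tead1 (ENSMUSG00000055320.17, chr7:112679318-112906807, plus strand) had its promoter region at chr7:112678501-112680137. It had 24 tags in Msx2-WT (15.4 to 35.7) and 29 in KO2 (19.4 to 41.6). KO1 had 6 tags (2.2 to 13.1) at a −log10 q of 1.96, just under the limit, so the region was listed there but not kept. At the relative density of Msx2-WT, 11.5 tags would have stood there in KO1, and at that of KO2, 13.3.

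The first intron of Tead1 held 3 regions, all with the highest relative density in Msx2-WT. Only at the first of them did the interval of a Msx2-KO library lie apart from that of Msx2-WT. At 21.0 kb, chr7:112699847-112700579, there were 28 tags in Msx2-WT (18.6 to 40.5), 7 in KO1 (2.81 to 14.4) and 9 in KO2 (4.12 to 17.1). The relative densities were 1.22 in Msx2-WT (0.809 to 1.76), 0.636 in KO1 (0.256 to 1.31) and 0.375 in KO2 (0.171 to 0.712), so that the interval of KO2 lay below that of Msx2-WT and the interval of KO1 overlapped it. The ratios were 0.523 and 0.308, with the lowest mean of the 21 regions held by all 3 libraries, and the first missed the limit of 0.5. The 101 bases around its summit, chr7:112700237-112700337 on the plus strand, are shown because, of those 21 regions, this one differed most in that direction. They hold the TEAD letters on the reverse strand, in capitals.
Tead1 intron 1: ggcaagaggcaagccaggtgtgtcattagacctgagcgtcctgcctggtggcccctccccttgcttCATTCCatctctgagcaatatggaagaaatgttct

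The next region of Tead1, at 34.6 kb, had 26 tags in Msx2-WT, 6 in KO1 and 22 in KO2, with ratios of 0.483 and 0.811. The one after it, at 41.5 kb, had 18 tags in Msx2-WT and 7 in KO2 and was not listed in KO1. Intron 2 held 3 weak regions, at 109 and 147 kb in KO2 alone with 10 and 7 tags, and at 144 kb in Msx2-WT alone with 11 tags. The Msx2-KO libraries each listed 3 tags at that last position, under the limit.

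Tead2 (ENSMUSG00000030796.17, chr7:45215753-45233644, plus strand) had no summit in its 37.9 kb window in any library, also among the summits listed under the limit. The 200 bases before its start, chr7:45215553-45215752, held 6 CpG pairs, whereas the same stretch of Yap1, chr9:8004597-8004796, held 34, and the median over 21851 genes was 7. Among the 10 genes the highest count was that of Yap1. The lowest was in Lats2, with 3 before its outermost start, though its promoter peak stood at an inner start. Amotl2, with a promoter peak in every library, held 7, and Ajuba, with none kept, held 11. The stretches of Tead2 and Yap1 are shown 5′ to 3′ in the direction of transcription with CG in capitals. They are examples of a gene without and a gene with a peak at the start.
Tead2: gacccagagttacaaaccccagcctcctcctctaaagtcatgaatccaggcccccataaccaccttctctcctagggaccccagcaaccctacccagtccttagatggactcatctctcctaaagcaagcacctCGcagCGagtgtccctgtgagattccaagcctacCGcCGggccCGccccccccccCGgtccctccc
Yap1: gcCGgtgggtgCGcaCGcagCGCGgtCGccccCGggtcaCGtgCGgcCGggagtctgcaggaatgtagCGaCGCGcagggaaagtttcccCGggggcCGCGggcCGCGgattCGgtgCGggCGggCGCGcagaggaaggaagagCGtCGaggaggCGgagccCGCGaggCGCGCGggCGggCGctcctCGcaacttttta

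Tead3 (ENSMUSG00000002249.21, chr17:28331671-28350817, minus strand) had 2 regions, both with the highest relative density in Msx2-WT. Its promoter region, chr17:28349958-28351374, which holds the direct repeat shown above, had 37 tags in Msx2-WT (26.1 to 51.0), 14 in KO1 (7.65 to 23.5) and 24 in KO2 (15.4 to 35.7). The ratios were 0.791 and 0.622, and the intervals of the relative density overlapped. Before the division by the median of the library, the density here was lowest in Msx2-WT, at 21.3 beside 29.4 in KO1 and 30.4 in KO2. In intron 2, at 9.57 kb and chr17:28340688-28341529, Msx2-WT had 43 tags (31.1 to 57.9) and KO2 had 20 (12.2 to 30.9), relative densities of 1.87 and 0.833. KO1 had no entry there. At the relative density of Msx2-WT it would have had 20.6 tags and at that of KO2 it would have had 9.17, while the lowest tag number kept in that library was 5. It is the densest region of the 10 genes that KO1 lacked. No TEAD or AP-1 letters stood within 50 bases of its summit, chr17:28341202-28341302 on the minus strand, shown as that region.
Tead3 intron 2: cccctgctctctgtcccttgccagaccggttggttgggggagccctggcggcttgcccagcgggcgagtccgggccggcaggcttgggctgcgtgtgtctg

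Tead4 (ENSMUSG00000030353.15, chr6:128224288-128300823, minus strand) was the most alike between libraries of the TEAD genes, with 5 of 6 regions in all 3. Its promoter region, chr6:128299657-128301007, had 27 tags in Msx2-WT (17.8 to 39.3), 17 in KO1 (9.90 to 27.2) and 28 in KO2 (18.6 to 40.5), ratios of 1.32 and 0.994. The 3 copies of GGAATG shown above lie within 100 bases of its summit in every library. A region at the internal start site, at 24.4 kb, had 10, 8 and 10 tags. Of the intronic regions, the one at 4.32 kb had 20, 18 and 20 tags with ratios of 1.88 and 0.958. Those at 18.5 and 38.6 kb had ratios between 0.871 and 0.915, below 1 in both Msx2-KO libraries and within the counting intervals. The region at 18.5 kb, chr6:128282281-128282381 on the minus strand, is shown because both TEAD and AP-1 letters, in capitals, stood within 50 bases of its summit.
Tead4 intron 1: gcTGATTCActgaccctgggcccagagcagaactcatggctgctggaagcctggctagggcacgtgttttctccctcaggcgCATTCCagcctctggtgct

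The LATS kinases, which phosphorylate YAP and TAZ, differed in their promoters. Lats1 (ENSMUSG00000040021.13, chr10:7681214-7716460, plus strand) had a promoter region at chr10:7680748-7682056 with no entry in Msx2-WT, 6 tags in KO1 (2.2 to 13.1) and 12 in KO2 (6.2 to 21.0). The −log10 q was 2.05 and 6.33. At the relative densities of the Msx2-KO libraries, 0.545 and 0.5, Msx2-WT would have had 12.5 or 11.5 tags, above the 9 that was the lowest number kept there. Both Msx2-KO values were thus low ones, and the first rested on 6 tags just past the limit. Upstream in the same window, the promoters of the neighbours Pcmt1 and Nup43 were open in all 3 libraries, with ratios between 0.799 and 1.24. Lats1 had no intronic region.

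Lats2 (ENSMUSG00000021959.16, chr14:57689662-57758388, minus strand) had its promoter peak at an inner start site, 12.2 kb from the outermost gene start. There were 15 tags in Msx2-WT (8.40 to 24.7), 9 in KO1 (4.12 to 17.1) and 15 in KO2 (8.40 to 24.7), with ratios of 1.25 and 0.958 that differed by less than counting error. Introns 2 and 3 held 3 regions between 50.6 and 56.3 kb. KO2 held them all with 9, 17 and 17 tags, Msx2-WT held the outer ones with 9 and 14, and KO1 held none and listed 4 tags under the limit at the last.

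Of the scaffold genes, Ajuba (ENSMUSG00000022178.11, chr14:54567472-54577558, minus strand) had no kept promoter peak. At −76 bases KO2 listed 16 tags at a −log10 q of 1.71, under the limit, and the other libraries listed nothing. Its signal lay in a region of intron 1, chr14:54574244-54576040, with 51 tags in Msx2-WT (38 to 67.1), 13 in KO1 (6.92 to 22.2) and 32 in KO2 (21.9 to 45.2). Msx2-WT was the highest in tags and in relative density, at 2.22 against 1.18 and 1.33, which gave ratios of 0.533 and 0.601. The interval of the relative density in Msx2-WT, 1.65 to 2.92, overlapped that of KO1, 0.629 to 2.02, and that of KO2, 0.912 to 1.88. The local background was high here in every library, at 4.31, 6.40 and 7.71 times that of the library. Further upstream, at −17.4 kb, a region was kept in both Msx2-KO libraries with 5 and 12 tags and listed in Msx2-WT with 7 tags, under the limit.

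Amotl2 (ENSMUSG00000032531.15, chr9:102716672-102733418, plus strand) was the one gene among the 10 with several regions, 4, that were all in every library. Its promoter region, chr9:102717077-102719326, had 24 tags in Msx2-WT (15.4 to 35.7), 12 in KO1 (6.2 to 21.0) and 23 in KO2 (14.6 to 34.5), ratios of 1.05 and 0.918. The upstream regions at −15.4 and −6.99 kb had 9, 6 and 7 tags and 20, 8 and 15 tags. The region in intron 5, at 9.75 kb, had 18, 9 and 9 tags and ratios of 1.05 and 0.479, and the intervals of the relative density of KO1 and KO2 overlapped.

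Over the 21 regions held by all 3 libraries, 0 were at least 2 times as dense in both Msx2-KO libraries as in Msx2-WT, beside 4.86% of all such regions, and 0 were at most 0.5 times as dense in both, beside 3.23%. The median ratio over the 21 was 1.05 in KO1 and 0.918 in KO2, beside 1.13 and 1.00 over all 13072 regions. Regions not kept in all 3 libraries could not be called. Among them was Tead3 intron 2, at relative densities of 1.87 in Msx2-WT and 0.833 in KO2, with no entry in KO1. Both ratios were above 1 in 3 of the 21, the promoters of Yap1 and Wwtr1 and intron 4 of Wwtr1, beside 42.5% of all such regions. Both were below 1 in 8, beside 34.0%. Without the division by the median of the library, Msx2-WT had the lowest density in 17 of the 21, and 7 were called higher in both Msx2-KO libraries. The same offset ran through the libraries: the undivided median over all 13072 regions was 13.2 in Msx2-WT, 23.1 in KO1 and 30.4 in KO2. The share of all regions called in this way was not taken. Between the Msx2-KO libraries themselves, 6.00% of all 13072 regions differed at least 2-fold.

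**Figure D4:**
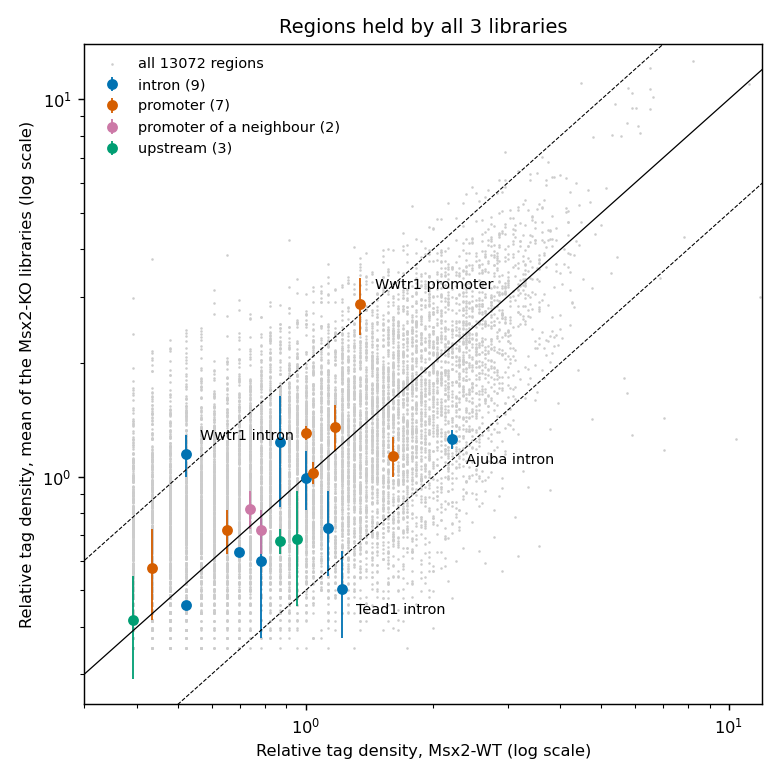
Mean relative tag density of the Msx2-KO libraries (vertical axis) against that of Msx2-WT (horizontal axis), both on log scales, for 13072 regions present in all 3 libraries (grey) and the 21 of the 10 genes, coloured by place. Vertical bars join the Msx2-KO replicates, the solid line marks equality and the dashed lines a 2-fold difference. The Wwtr1 promoter lies above the upper dashed line as a mean with one replicate below it, at ratios of 2.50 and 1.76, and the Tead1 intron 1 region lies below the lower one, at 0.523 and 0.308.

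The strongest summit of a shared region stood at nearly the same base in some cases and far apart in others. The distance between the outermost of the 3 summits had a median of 105 bases over the 21 regions, beside 93 over all 13072, and 9 of the 21 were within 100 bases, beside 53.4%. The widest distances were 1444 bases at the internal start of Tead4 and 1261 at the Yap1 promoter, and the narrowest was 20 bases, at the Nup43 promoter in the Lats1 window.

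The letters of 4 factors were counted within 100 bases of the strongest summit of each region, on both strands: TEAD as GGAATG, AP-1 as TGANTCA, MSX as TAATTG and RUNX as TGTGGTT, none of which contains another. TEAD letters stood in 12 of the 40 regions, or 30.0%, beside 13.1% of all 47558 regions measured. At start sites it was 5 of 11, beside 7.28%, and these were the promoters of Wwtr1, Tead3, Tead4, Lats2 and Amotl2. Away from start sites it was 7 of 29, beside 15%. AP-1 letters stood in 9 of 40, beside 12%, with 1 of 11 at start sites, beside 3.7%, and 8 of 29 away from them, beside 14.8%. MSX letters stood in 3 of 40, beside 7.26%, all in introns of Tead1 and Yap1. RUNX letters also stood in 3, beside 4.51%.

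The promoter sequences of RefSeq for GRCm38.p6, 250 bases before to 50 after a start, were matched for 8 of the 10 genes, all but Tead1 and Tead4. TEAD letters stood in those of Yap1, Wwtr1, Tead3, Lats2, Ajuba and Amotl2, 6 of 8 genes, beside 16.6% of the 27025 symbols in the table, and not in those of Tead2 and Lats1. Some of these genes have more than 1 start in the table, and a gene was counted once.

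**Figure D5:**
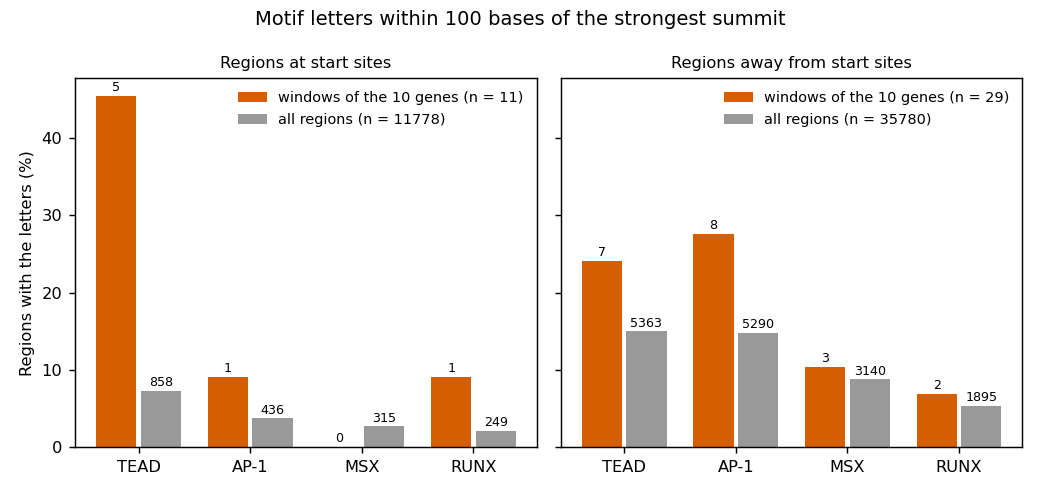
Share of regions, in percent, with the letters of TEAD, AP-1, MSX and RUNX within 100 bases of the strongest summit, in the windows of the 10 genes (orange) and over all regions (grey), at start sites (left) and away from them (right). Numbers above the bars are counts of regions. TEAD letters stand in 5 of 11 regions of the 10 genes at start sites, beside 858 of 11778.

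The rest of the pathway was read from 4 further lists of 38 genes. In Msx2-WT, 29 of their promoters held a peak, beside 47.1% of all protein-coding genes. It was 23 in KO1, beside 37.9%, and 32 in KO2, beside 53.5%. All 3 libraries held a promoter peak for 23, beside 35.1%. Kinases and scaffolds such as Stk3 and Sav1, which act above LATS, had one in 8, 7 and 8 of 8 genes. Upstream regulators, among them Nf2, had one in 8, 7 and 11 of 12. Cofactors of the VGLL family, which compete with YAP for TEAD, had one in 2, 1 and 2 of 4, and target genes of YAP and TEAD in 11, 8 and 11 of 14. None was open in both Msx2-KO libraries and closed in Msx2-WT. The reverse held for 1 of the 38, Nuak2, a kinase gene and YAP target, with 18 tags in Msx2-WT (10.7 to 28.4) and no entry in either Msx2-KO library, beside 2.15% of all genes with a promoter peak in Msx2-WT alone. Of the 23 promoters in all 3 libraries, 3 were at least 2 times as dense in both Msx2-KO libraries, beside 2.83% of all such promoters: Wwc2, Amot and Ccn2. The last, which carries the direct repeat of TEAD letters, had 17 tags in Msx2-WT, 40 in KO1 and 38 in KO2, ratios of 4.92 and 2.14. In KO1 the 40 tags had a −log10 q of 11.7, beside 23.8 for 37 tags at the Wwtr1 promoter. The part of local background in the ratios of Ccn2 was not tested. The promoters of Tead3 and Tead4, with the same repeat, had ratios of 0.791 and 0.622 and of 1.32 and 0.994. None of the 23 was at most 0.5 times as dense, beside 2.78%. Wwc2, Amot and Ccn2 were named after their values were seen.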

How the data were processed

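The files were 3 Omni-ATAC-seq peak lists of sorted HFSCs, 1 per library. The authors aligned Trimmomatic-trimmed reads to GRCm38 (mm10) by BWA-MEM, dropped mitochondrial ones, and ran MACS2 with no model, a shift of 100 and an extension of 200. Duplicates were kept, so tags are not independent molecules. Replicates were not pooled. The MACS2 version is not given in the sources used here. The authors deposited for each summit a fold enrichment, (tags + 1)/(background + 1), beside −log10 values of p and q and a score column, unused here. A q-value of 0.01 is stated as the limit but the lists run on to a p-value of 0.01. Only summits above a −log10 q of 2.0 on the 19 autosomes and the sex chromosomes were therefore kept.

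Tags must be whole numbers, so both the tag number and the local background follow from the deposited fold and its −log10 p. Of all summits in a library, at least 99.9% gave a whole tag number whose −log10 p was within 0.02 of the deposited one. The commonest background stood for depth, since read totals are not in these lists. It was 3.65 times as high in Msx2-WT as in KO1, which limits what KO1 could show. Recovery and region matching were tested on simulated data. A peak was placed by its strongest summit, and peaks sharing at least 1 base were merged. Start sites, exons and introns came from the basic GENCODE M21 annotation, with introns numbered on the principal transcript. Intervals are exact Poisson intervals at 95%. Groups came from the labels. No test was run between genotypes, and a region was called where both Msx2-KO ratios passed 2.0 or 0.5. Genes named beside the 10 were those of the pathway lists whose promoter state was the same in both Msx2-KO libraries and different in Msx2-WT, the 3 genes nearest to Wwtr1 in its 9 counts, and those said to be chosen after their values were seen. The genes and lists were chosen with earlier results of these data known. Alternatives were other limits of −log10 q, lists of equal length, scaling to the shallowest background, other promoter and window lengths, placement by interval, reciprocal overlap, deposited folds, densities not divided by the median, and leaving out each Msx2-KO library. The software was matplotlib 3.10.9, scipy 1.17.1, pandas 2.3.3 and numpy 2.4.6 under Python 3.11.15.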

Additional observations from a re-analysis of the deposited data

How the results depend on the processing

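No paired analysis was possible because Msx2-WT and Msx2-KO share only replicate number 1. With tags and background scaled to the shallowest background, Msx2-WT kept 12 peaks in the windows. The mean peak number of KO1 and KO2 over that of Msx2-WT became 2.00 from 0.909. Promoter peaks fell to 4 of 10 genes in Msx2-WT and to 3 in every library. A promoter peak was kept in KO1 and KO2 but not in Msx2-WT for 4 genes. Regions then numbered 9 in every library, 10 in KO1 with KO2, and 0 in Msx2-WT alone. Shares over all genes and regions were not taken under the alternatives. At a −log10 q of at least 5, KO1 and KO2 kept 9 and 24 peaks, 8 regions stood in every library, 1 in both Msx2-KO libraries, 5 in Msx2-WT alone, and 0 genes, Lats1 being lost in KO1, had a promoter peak in KO1 and KO2 but not Msx2-WT. With every deposited peak, Msx2-WT had 62 peaks, KO2 had 57, and there were 78 regions, 17 in Msx2-WT alone. With promoters of 500 or 3000 bases, and peaks placed by their strongest summit, 1 gene had a promoter peak in Msx2-WT alone (Yap1, then Ajuba) instead of 0, although weaker summits of the Msx2-KO peaks lay within those distances (KO1 and KO2 at Yap1, KO2 at Ajuba). From 5 kb before the start, 1 region stood in both Msx2-KO libraries alone. By 50% reciprocal overlap, 6 did, and 11 in Msx2-WT alone. Not divided by the median, the median ratio was 1.97 and 7 regions were called higher. Leaving out either Msx2-KO library gave 1 region called higher and 2 lower, but no region was called in both cases. Without KO1 these were Wwtr1 intron 4 (higher), Tead1 at 21.0 kb and Amotl2 intron 5 (lower). Without KO2 they were the Wwtr1 promoter (higher), the Wwtr1 upstream region and Tead1 at 34.6 kb (lower). Regions in Msx2-KO and not Msx2-WT then numbered 2 to 9 (9 without KO1), and those in Msx2-WT alone 3 to 10 (10 without KO2). Promoters in Msx2-WT alone numbered 0 to 1 (Tead1, without KO2). Under placement by interval overlap, lists of equal length or deposited folds, none of these counts moved by over 1.5 times, but with lists of equal length, as with every deposited peak, the Tead1 promoter was open in all 3 libraries.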
